A study of Mus musculus with 6 samples.

Results

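Naive pluripotency transcription factors are the regulators that keep mouse embryonic stem cells in a state resembling the epiblast before implantation, and 10 genes that encode them were read here as named members of a deposited table of 23999 genes: Klf2, Klf4, Klf5, Esrrb, Nr5a2, Nr0b1, Tfcp2l1, Tbx3, Prdm14 and Zfp42. All 10 were found in the table and all 10 passed the filter on low counts that left 14458 genes to test. In this network the signals of LIF through STAT3, of WNT through TCF7L1 and of the FGF and ERK pathway act on the factors, and the factors act on each other and on the core genes Nanog, Pou5f1 and Sox2. The KLF proteins and ESRRB are known for keeping the naive state when they are supplied in excess, PRDM14 for repressing genes of DNA methylation, and Zfp42, also called Rex1, as a marker of the state.

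The samples were polyadenylated RNA of murine embryonic stem cells whose genotype was given as -5 floxed with exogenous mNanogV5, a tagged copy of mouse Nanog carried by both groups. The 4OHT group (n = 3) was kept with 4-hydroxytamoxifen, a ligand commonly given to activate Cre proteins that carry an oestrogen receptor domain, and the vehicle group (n = 3) with ethanol, each for 6 days. The comparison addresses what happens to gene expression after treatment of cells whose floxed element lies, by the title of the study, at a Nanog enhancer. The labels used here name neither the Cre nor the number of clones, and an effect of 4-hydroxytamoxifen itself, which is known to bind the oestrogen-related receptors ESRRB and ESRRG, cannot be told apart from one of the floxed element. They do not say whether the samples of a group came from separate cultures, so the p-values measure the spread between these samples, which may be technical.

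The libraries held 55194644, 515388 and 31307423 counts in 4OHT replicates 1 to 3 and 20030423 to 52250671 counts in the vehicle samples. 4OHT replicate 2 therefore stood apart in depth, and 1 read there was worth 1.91 CPM, the count relative to library size after scaling with TMM (a factor that corrects for a few genes taking up reads). Nanog averaged 181 ± 11.5 CPM in 4OHT cells and 643 ± 14.5 CPM in vehicle cells (SD, n = 3 each), with a log2 fold change of 4OHT over vehicle of -1.81 (SE 0.06, edgeR adjusted p = 1.6e-13), and reads of the tagged copy can be part of both values. The 8 stem cell markers summed to 4426 to 4620 CPM in 4OHT and 4470 to 4574 CPM in vehicle cells, and the 8 fibroblast markers to 14.0 to 19.1 CPM in 4OHT and 24.4 to 26.1 CPM in vehicle cells, so the labelled cell type carried its markers in both groups. The even stem cell sums hide opposite changes. Sall4, Trim71 and Sox2 rose (log2 fold changes 0.54, 0.21 and 0.18) and Pou5f1 fell (-0.21). Opposite-strand genes overlap 14.1% of the exon bases of Pou5f1 and 9.5% of those of Sall4. DESeq2 called 1 of the 8 higher and 1 lower, and edgeR without vehicle replicate 2 called 1 higher and 0 lower. Sox2 and Trim71 lost their calls in DESeq2 and without vehicle replicate 2 or vehicle replicate 3. Sox2 also lost its call without 4OHT replicate 3, Trim71 with library totals alone and Pou5f1 without vehicle replicate 2. With library totals alone edgeR called 2 higher and 3 lower. Of the fibroblast markers Thy1 alone was called, with means of 6.67 CPM in 4OHT and 15.8 CPM in vehicle cells. All 10 primitive endoderm markers, genes of the extraembryonic lineage beside the epiblast, were called higher in 4OHT cells, and DESeq2 called 8 of the 10. Of all 14458 tested genes, edgeR called 11.9% higher and 10.5% lower. The primitive endoderm list was chosen with earlier results of these data known. The primitive endoderm markers summed to 252 to 304 CPM in 4OHT and 148 to 162 CPM in vehicle cells, and 3 of the 10 had no read in 4OHT replicate 2. Lama1 and Col4a1 held most of these sums, with means of 135 and 84.5 CPM in 4OHT and 94.2 and 52.4 CPM in vehicle cells. Cubn averaged 20.6 CPM in 4OHT and 0.547 CPM in vehicle cells, and Gata6 11.3 and 0.71 CPM. Trophoblast markers, of another extraembryonic lineage, changed in both directions. Of 6 tested, 2 rose and 3 fell (median log2 fold change -0.34). DESeq2 called 0 of them higher and 1 lower, and edgeR without vehicle replicate 3 called 0 higher and 3 lower. The part of the primitive endoderm markers in the changes of the naive factors was not tested. In bulk RNA, fewer cells that express a gene and less RNA per cell cannot be told apart.

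Beside this fall of Nanog, 4 of the 10 naive factors changed, by smaller amounts and in both directions. Klf2 and Nr5a2 rose, Prdm14 and Klf5 fell, and Klf4, Esrrb, Nr0b1, Tfcp2l1, Tbx3 and Zfp42 did not pass the test (edgeR's quasi-likelihood test, Benjamini-Hochberg adjusted p under 0.05 over all tested genes). The 4 called members make 40% of the 10, beside 22.4% of all 14458 tested genes (11.9% higher and 10.5% lower) and 21.9% of the 4735 genes at least as abundant as the lowest member. The members were chosen with earlier results of these data known, so the difference between these shares is a description and no test. The median log2 fold change was 0.03 for the 10 members and 0.00 for all tested genes, and the median of its size without sign was 0.11 for the members and 0.14 for all tested genes. The CPM ranges of the groups did not overlap for 6 members, those of Klf2, Nr5a2, Tfcp2l1 and Tbx3 lying higher in 4OHT and those of Prdm14 and Klf5 lower, beside 31.3% of all tested genes and 33.3% of those at the members' level. Of the 4 calls, that of Klf2 alone passed in all 12 other settings tried.

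**Figure D1:**
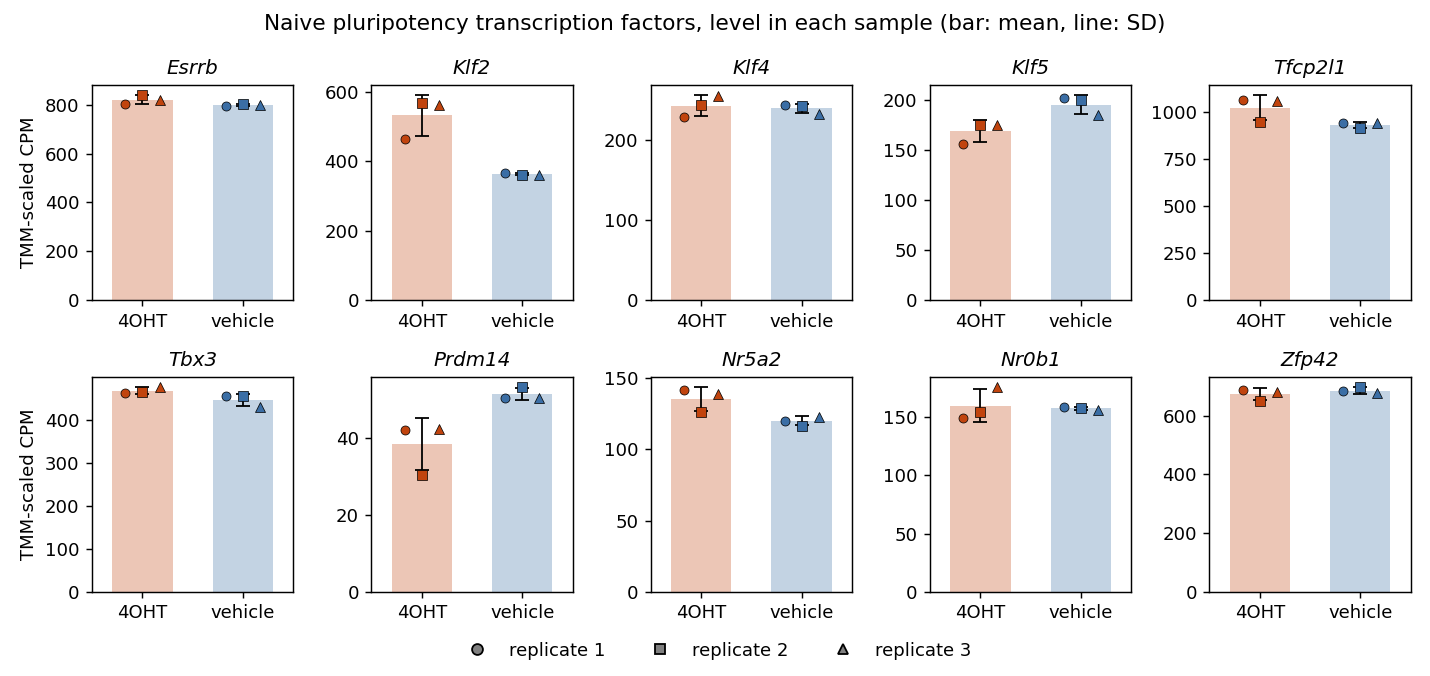
TMM-scaled CPM (vertical axis, from 0) of each naive factor in the 3 4OHT samples and the 3 vehicle samples, with symbols for replicates, bars for means and lines for the SD. The Klf2 points of 4OHT cells lie at 465 to 569 CPM, above the 361 to 367 CPM of vehicle cells, whereas the points of Esrrb, Klf4, Nr0b1 and Zfp42 overlap between groups.

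KLF2, KLF4 and KLF5 are zinc finger proteins that bind GC-rich boxes in promoters and enhancers and can stand in for each other in stem cells, with KLF4 known as a target of LIF and STAT3 signalling. Klf2 had 465, 569 and 562 CPM in 4OHT replicates 1, 2 and 3, against 367, 361 and 361 CPM in vehicle replicates 1, 2 and 3. All 4OHT values stood above all vehicle values, and 4OHT replicate 1 was the lowest of its group. Klf2 rose 1.44-fold in 4OHT cells, a log2 fold change of 0.53 with a 95% interval of 0.38 to 0.67 and an SE of 0.07 (edgeR adjusted p = 9.07e-06). The SD was 10.9% of the mean in 4OHT cells and 0.987% in vehicle cells. The rise was 0.64 on the log2 scale without 4OHT replicate 1 and 0.43 without 4OHT replicate 3.

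Klf5 had 156, 176 and 175 CPM in the 4OHT samples, against 202, 200 and 185 CPM in the vehicle samples. Its ranges did not overlap either, but lay in the opposite order. The value of the shallow 4OHT replicate 2 rests on 92 reads, with a counting interval of 142 to 215 CPM that covers the vehicle values. The fold change of Klf5 was -0.23 on the log2 scale (95% interval -0.37 to -0.10, SE 0.06, edgeR adjusted p = 0.0124). The call was lost in DESeq2 (adjusted p = 0.0525) and without vehicle replicate 2 (edgeR adjusted p = 0.0534).

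Klf4 had 229, 244 and 255 CPM in the 4OHT samples, against 244, 242 and 233 CPM in the vehicle samples. The groups overlapped, and the log2 fold change of 0.02 had a 95% interval of -0.11 to 0.14 (edgeR adjusted p = 0.894), which in fold is 0.926 to 1.10. Its sign changed with library totals as the only scaling (-0.0067), without 4OHT replicate 3 (-0.052) and without vehicle replicate 3 (-0.0047).

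The make-up of the trio shifted toward Klf2. Klf2 took 54.7%, 57.5% and 56.7% of the summed Klf2, Klf4 and Klf5 counts in 4OHT replicates 1, 2 and 3, against 45.2%, 44.9% and 46.4% in vehicle replicates 1, 2 and 3. Klf5 took 18.4%, 17.8% and 17.6% in the 4OHT samples, against 24.8%, 24.9% and 23.7% in the vehicle samples. Klf4 took 24.7% to 26.9% in 4OHT and 29.9% to 30.1% in vehicle cells. The differences of the means were 10.8 percentage points for Klf2, -4.23 for Klf4 and -6.58 for Klf5, and in each case the groups did not overlap (exact permutation test, two-sided, p = 0.1, the smallest that 3 against 3 samples can give). These shares are free of the scaling between libraries, but they are parts of 1 sum, so the 3 differences depend on each other. A rise of Klf2 lowers the other shares even where their levels stay the same. The Klf4 level itself did not pass the test (log2 fold change 0.02, edgeR adjusted p = 0.894). In the shallow 4OHT replicate 2 the exact 95% interval of the Klf2 share was 53.1% to 61.8%, which covers counting error only. Per transcript length the Klf2 share averaged 68.7% ± 1.29 in 4OHT and 58.8% ± 0.734 in vehicle cells (SD, n = 3 each).

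**Figure D2:**
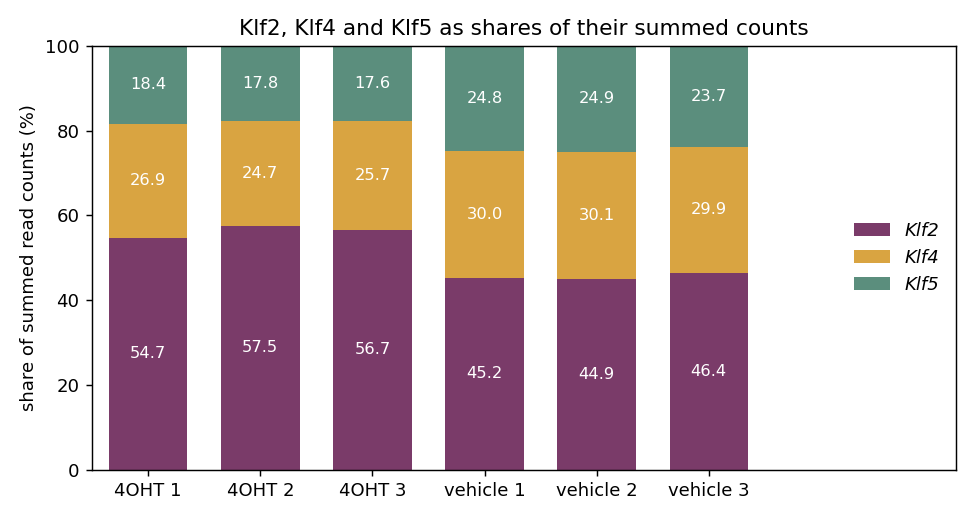
Share of Klf2, Klf4 and Klf5 in their summed read counts (vertical axis, percent) for each of the 3 4OHT and 3 vehicle samples, printed in each segment. Klf2 makes up 54.7% to 57.5% in 4OHT samples and 44.9% to 46.4% in vehicle samples.

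Other KLF genes were expressed beside the trio, and 6 of 13 tested relatives rose and 1 fell, with a median log2 fold change of 0.14. Of all tested genes, 11.9% were called higher and 10.5% lower. Klf9 stood at 229 ± 2.29 CPM in 4OHT and 184 ± 6.19 CPM in vehicle cells (SD, n = 3 each; log2 fold change 0.31, edgeR adjusted p = 0.000384), and Klf3, which recruits the corepressor CtBP and shares 3.59% of its exon bases with an opposite-strand gene, had a log2 fold change of 0.40 (edgeR adjusted p = 0.000294). Klf10, a gene induced by TGF-beta in other cells, fell (log2 fold change -0.30, edgeR adjusted p = 0.00157). DESeq2 called 2 of these relatives higher and 1 lower. Without vehicle replicate 3, edgeR called 3 higher, and without 4OHT replicate 3 it called 2 lower. Per length of the longest coding transcript, Klf2 held 46.9% to 50.5% of the reads of all 17 KLF genes listed in 4OHT cells and 39.8% to 40.3% in vehicle cells. Klf5 held 8.51% to 8.69% in 4OHT and 11.4% to 12.2% in vehicle cells.

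The promoters of Klf2 and Klf4, the member that rose most and a relative that did not pass, are shown because both carry the GC-rich boxes that KLF and SP proteins bind, together with that of Zfp42, which carries the octamer read by OCT4. The RefSeq table on GRCm38.p6 matched 7 of the 10 members with 9 start sites, and the 250 bases before each start site were searched on both strands for CCNCNCCC (the KLF and SP box), ATTTGCAT (the octamer), AAGGTCA (the core site of ESRRB and NR5A2) and GGTGTGA (a T-box core site). Each sequence below runs 5′ to 3′ on the strand of its gene and ends at the base before the start, with matches in capitals. Klf2 lies on the plus strand at chr8:72318812-72319061, Klf4 on the minus strand at chr4:55532476-55532725 and Zfp42 on the minus strand at chr8:43307010-43307259.
Klf2: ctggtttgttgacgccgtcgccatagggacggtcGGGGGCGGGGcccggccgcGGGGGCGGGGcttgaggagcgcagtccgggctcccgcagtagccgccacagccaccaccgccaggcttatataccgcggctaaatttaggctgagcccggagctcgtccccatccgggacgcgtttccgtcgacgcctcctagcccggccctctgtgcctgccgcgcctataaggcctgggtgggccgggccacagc
Klf4: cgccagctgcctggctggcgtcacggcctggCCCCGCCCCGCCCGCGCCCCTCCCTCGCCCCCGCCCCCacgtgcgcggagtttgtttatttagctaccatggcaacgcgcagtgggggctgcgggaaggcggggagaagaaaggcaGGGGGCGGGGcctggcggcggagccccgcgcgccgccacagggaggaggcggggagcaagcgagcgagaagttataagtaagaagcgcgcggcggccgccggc
Zfp42: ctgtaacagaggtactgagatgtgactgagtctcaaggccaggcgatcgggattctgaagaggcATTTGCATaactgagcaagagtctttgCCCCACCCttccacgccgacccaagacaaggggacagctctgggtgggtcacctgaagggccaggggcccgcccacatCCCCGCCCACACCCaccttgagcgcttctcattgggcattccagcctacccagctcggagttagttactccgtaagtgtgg
The Klf2 window held 4 matches to the KLF and SP box, the Klf4 window 9 and the Zfp42 window 3, where overlapping matches count separately. Of the windows not shown, the 2 of Esrrb held 8 and 1, the 2 of Nr5a2 held 0 and 4, that of Tfcp2l1 held 2 and that of Nr0b1 held 0. The box is thus not particular to the KLF genes of the set, and 45.9% of 32851 RefSeq windows of the same length held at least 1. The octamer was found in the Zfp42 window alone among the 9, 186 bases before the start, and in 1.6% of all windows. The core site of ESRRB and NR5A2 and the T-box core site, held by 4.08% and 3.33% of all windows, had no match in these 9, which says only that these letters are not there. The counts were made against mm9, another build, and do not bear on which start site was used.

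The nuclear receptors of the set are ESRRB, which binds DNA without a known natural ligand and is known to lie downstream of NANOG, NR5A2, known for driving Pou5f1 expression, and NR0B1, also called DAX1, an atypical receptor without the usual DNA-binding domain. Nr5a2 had 141, 126 and 139 CPM in the 4OHT samples, against 120, 117 and 123 CPM in the vehicle samples. The lowest 4OHT value, that of the shallow replicate 2 with 66 reads, lay above the highest vehicle value, and its counting interval of 97.4 to 160 CPM covers both groups. Its fold change was 0.21 on the log2 scale (95% interval 0.09 to 0.33, SE 0.06, edgeR adjusted p = 0.0125). It lost its call in DESeq2 (adjusted p = 0.136) and without vehicle replicate 2 (edgeR adjusted p = 0.133).

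Esrrb had 803, 840 and 819 CPM in the 4OHT samples, against 796, 804 and 798 CPM in the vehicle samples. The groups overlapped, and the log2 fold change of 0.03 had a 95% interval of -0.08 to 0.15 (edgeR adjusted p = 0.738), which in fold is 0.943 to 1.11. Esrrb held 96.5% to 97.9% of the reads per length of the 3 oestrogen-related receptor genes in 4OHT and 95.8% to 96.0% in vehicle cells. Esrra, the relative that regulates energy metabolism, stood at 13.0 ± 3.05 CPM in 4OHT and 18.0 ± 0.503 CPM in vehicle cells (SD, n = 3 each) and fell (log2 fold change -0.30, edgeR adjusted p = 0.0171), but the call was lost in DESeq2 (adjusted p = 0.449) and without 4OHT replicate 1, vehicle replicate 2 or vehicle replicate 3 (edgeR adjusted p = 0.065, 0.0551 and 0.0659). Nr0b1 had 149, 155 and 176 CPM in the 4OHT samples, against 159, 158 and 156 CPM in the vehicle samples. The vehicle values fell within the 4OHT range, where replicate 3 was the highest. The log2 fold change was 0.03 (95% interval -0.10 to 0.17, edgeR adjusted p = 0.769), and it was -0.08 without 4OHT replicate 3 and 0.14 without 4OHT replicate 1.

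TFCP2L1, a CP2 family factor known as a LIF and STAT3 target that can hold the naive state, came from the member with the highest CPM. Tfcp2l1 had 1062, 947 and 1060 CPM in the 4OHT samples, against 940, 913 and 941 CPM in the vehicle samples. All 4OHT values lay above all vehicle values, the shallow replicate 2 by the least, and its counting interval of 865 to 1034 CPM covers the vehicle values. The log2 fold change of 0.15 (SE 0.06, 95% interval 0.03 to 0.27) came with an edgeR adjusted p of 0.0778. With the replicate number as a block, a pairing that the labels do not give, Tfcp2l1 passed (edgeR adjusted p = 0.00599). It also passed without 4OHT replicate 2 (edgeR adjusted p = 0.0308), while without vehicle replicate 2 its edgeR adjusted p was 0.348. An snRNA gene on the same strand, Gm23497, overlaps 1.38% of its exon bases. Among its relatives Grhl2, a grainyhead factor of epithelial cells, stood at 18.8, 7.63 and 15.1 CPM in the 4OHT samples, against 34.6, 31.1 and 32.4 CPM in the vehicle samples. The groups were far apart, and Grhl2 fell, with a log2 fold change of -0.96 (SE 0.10, edgeR adjusted p = 2.86e-07). Its value in 4OHT replicate 2 is not far above that of 3 reads there, 5.73 CPM. In all 1 of the 5 relatives of Tfcp2l1 rose and 3 fell, with a median log2 fold change of -0.34, and DESeq2 called Grhl2 alone among them. The shares of all tested genes were 11.9% higher and 10.5% lower. Per length, Tfcp2l1 held 70.9% to 73.1% of the reads of the 6 genes in 4OHT and 67.3% to 68.8% in vehicle cells.

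TBX3, a T-box factor known in stem cells for work in both self-renewal and the exit toward extraembryonic endoderm, did not pass the test. Tbx3 had 461, 466 and 476 CPM in the 4OHT samples, against 455, 455 and 431 CPM in the vehicle samples. The ranges did not overlap, though the counting interval of the shallow 4OHT replicate 2, 409 to 528 CPM, covers the vehicle values. The log2 fold change of 0.07 (95% interval -0.05 to 0.19) did not pass (edgeR adjusted p = 0.443). An antisense gene, Tbx3os1, overlaps 1.74% of its exon bases, and the use of strand in the counting is not given in the sources used here. Tbx3 held 77.7% to 81.0% of the reads per length of the 17 T-box genes listed in 4OHT and 78.3% to 79.8% in vehicle cells. Of 7 tested relatives 3 rose (Tbx4, Tbx18 and Tbx20), beside 11.9% of all tested genes, and all 3 had levels under 2 CPM in each sample. Without 4OHT replicate 1, and likewise without vehicle replicate 3, edgeR called 1 of them. DESeq2 made none of these calls, and Tbx18 alone among them had an unadjusted p under 0.05 there.

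PRDM14, a PR domain zinc finger protein that acts with CBFA2T2 and the Polycomb complex PRC2 and is known for repressing Dnmt3b and FGF receptor genes, came from the member with the lowest level. Prdm14 had 42.1, 30.5 and 42.5 CPM in the 4OHT samples, against 50.5, 53.3 and 50.5 CPM in the vehicle samples. The groups did not overlap. The value of the shallow replicate 2 rests on 16 reads, whose counting interval of 17.5 to 49.6 CPM holds the other 4OHT values and lies below the vehicle values. Its fold change was -0.30 on the log2 scale (95% interval -0.44 to -0.15, SE 0.07, edgeR adjusted p = 0.0033). The call held in each edgeR setting and was lost in DESeq2 with all libraries (adjusted p = 0.116). Prdm14 held 23.9% to 27.4% of the reads per length of the 14 PRDM genes listed in 4OHT and 30.8% to 33.0% in vehicle cells.

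ZFP42, a zinc finger protein related to YY1, is the marker by whose reporter naive cells are often tracked. Zfp42 had 689, 649 and 681 CPM in the 4OHT samples, against 683, 697 and 676 CPM in the vehicle samples. The groups overlapped, and the log2 fold change of -0.02 had a 95% interval of -0.13 to 0.10 (edgeR adjusted p = 0.877), which in fold is 0.911 to 1.07. The pseudogene Zfp42-ps1 matches 26.9% of the Zfp42 transcript with at least 95% identity, so some reads can belong to it. Per length, Zfp42 held 92.1% to 93.3% of the reads of Zfp42, Yy1 and Yy2 in 4OHT and 92.2% to 92.6% in vehicle cells. All exon bases of Yy2 (100%) lie within exons of Mbtps2 on the same strand, so reads cannot be assigned to Yy2 with certainty.

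**Figure D3:**
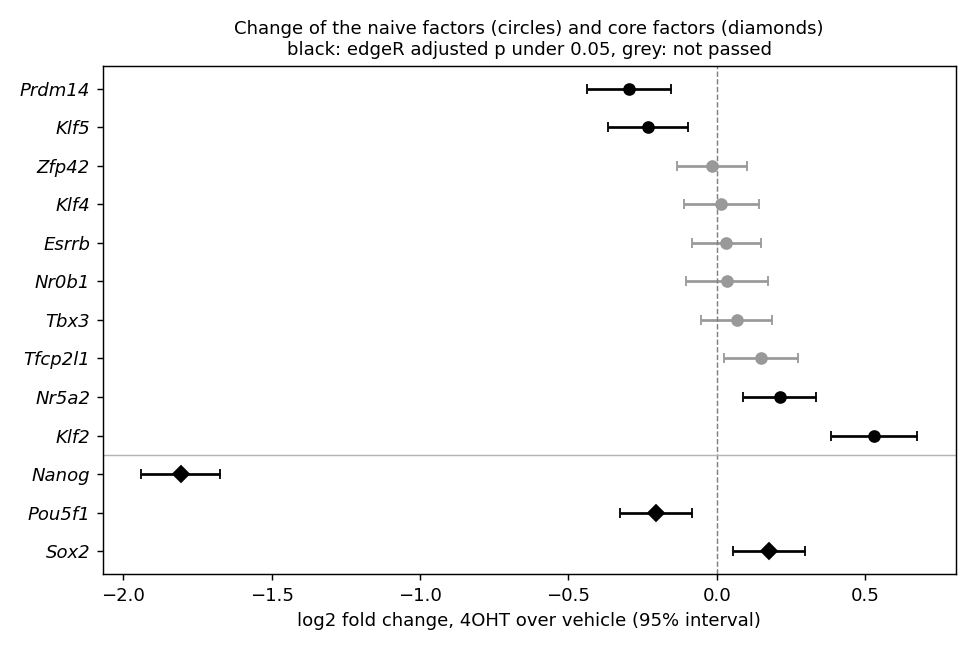
Log2 fold change of 4OHT over vehicle (horizontal axis) with its 95% interval for the 10 naive factors (circles) and for Nanog, Pou5f1 and Sox2 (diamonds), in black where the edgeR adjusted p was under 0.05. The naive factors lie between -0.30 for Prdm14 and 0.53 for Klf2, and Nanog lies at -1.81.

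The order of the 10 factors by level was the same in both groups. On a scale of TMM-scaled CPM per kilobase of the longest coding transcript, Zfp42 was highest with 366 ± 11.6 in 4OHT and 373 ± 5.93 in vehicle cells, followed by Klf2 with 288 ± 31.5 and 196 ± 1.94 and by Esrrb with 191 ± 4.26 and 186 ± 0.972 (SD, n = 3 each, 4OHT and vehicle). Tfcp2l1, Tbx3, Nr0b1 and Klf4 came next, between 110 for Tfcp2l1 and 80.2 for Klf4 in 4OHT cells and between 100 and 79.1 in vehicle cells. Klf5, Nr5a2 and Prdm14 closed the order, Prdm14 with 15.0 ± 2.65 in 4OHT and 20.1 ± 0.63 in vehicle cells (SD, n = 3 each). Tbx3 and Nr0b1 could not be separated by their ranges in either group, nor Nr0b1 and Klf4 in 4OHT cells, while the other neighbours lay apart. With merged exon lengths Tbx3 came after Nr0b1 and Klf4 in both groups.

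Signalling inputs and partners of the factors held genes that changed, mostly by small amounts. The counts below stand beside 11.9% of all tested genes called higher and 10.5% lower. Of 7 LIF and STAT3 genes 1 rose and 1 fell (median log2 fold change 0.06), and 2 were called higher without 4OHT replicate 3. Stat3, the transcription factor at the end of that pathway, had 126, 82.1 and 115 CPM in the 4OHT samples, against 146, 140 and 143 CPM in the vehicle samples. Its groups did not overlap, and it fell, with a log2 fold change of -0.28 (SE 0.07; edgeR gave an adjusted p = 0.00741). Its feedback inhibitor Socs3 was called higher just under the threshold (log2 fold change 0.17, edgeR adjusted p = 0.049). That call was lost in DESeq2 (adjusted p = 0.286), without 4OHT replicate 3 (edgeR adjusted p = 0.236), without each vehicle sample in turn (0.131, 0.221 and 0.135), with library totals alone (0.0727) and when low genes were kept (0.0582). Of 9 WNT and TCF genes 1 fell and 8 did not pass (median -0.01), whereas 2 were called higher and 2 lower without 4OHT replicate 1, and 1 higher without 4OHT replicate 3. The gene that fell was Lef1, a transcription factor at the end of the WNT pathway (log2 fold change -1.01, edgeR adjusted p = 0.000583), at 1.91 to 2.89 CPM in 4OHT and 4.28 to 6.70 CPM in vehicle cells. Its call was lost in DESeq2 (adjusted p = 0.0797), and an opposite-strand gene overlaps 13.7% of its exon bases. Tcf7l1, the repressor that WNT signals relieve, was among those that did not pass (log2 fold change 0.16, edgeR adjusted p = 0.127), and it passed without 4OHT replicate 1 (edgeR adjusted p = 0.0435), as did Gsk3a, a kinase that acts on beta-catenin (log2 fold change 0.21, edgeR adjusted p = 0.00971), of whose exon bases an antisense gene overlaps 28.3%. Of 12 FGF and ERK genes 5 rose and 1 fell (median 0.07), and DESeq2 called 1 higher and 1 lower. The higher calls were 2 without vehicle replicate 2 and 3 without vehicle replicate 3. The gene that fell was the ligand gene Fgf4 (log2 fold change -0.30, edgeR adjusted p = 0.000721). Fgfr2, a receptor that PRDM14 is known to repress, had 7.18, 7.63 and 6.82 CPM in the 4OHT samples, against 3.12, 3.63 and 4.41 CPM in the vehicle samples (log2 fold change 0.95, SE 0.14, edgeR adjusted p = 3.05e-05). The groups did not overlap, and the level of 4OHT replicate 2 is not far above that of 3 reads there, 5.73 CPM. Ctbp2, a protein-coding gene on the same strand, overlaps 3.04% of the exon bases of Fgfr2. Fgfr1, the other FGF receptor gene of the list, did not pass (log2 fold change -0.09, edgeR adjusted p = 0.340). A link between the levels of Prdm14 and Fgfr2 was not tested.

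Of 5 cofactor genes 4 rose and 1 did not pass, with a median log2 fold change of 0.20, and 2 were called higher in DESeq2 and without vehicle replicate 2. The share of all tested genes called higher was 11.9%, and the cofactor list was chosen with earlier results of these data known. Ncoa3, a coactivator known to work with ESRRB in stem cells, had 397, 399 and 362 CPM in the 4OHT samples, against 277, 266 and 261 CPM in the vehicle samples. The groups were far apart, and the log2 fold change was 0.51 (SE 0.06, edgeR adjusted p = 2.16e-06). Suz12, a subunit of PRC2, rose with a log2 fold change of 0.25 (edgeR adjusted p = 0.00339). The calls of Cbfa2t2 and Ezh2 (log2 fold changes 0.20 and 0.20) were lost in DESeq2 (adjusted p = 0.141 and 0.0782) and without vehicle replicate 2 (edgeR adjusted p = 0.0706 and 0.152), that of Cbfa2t2 also without vehicle replicate 3 (0.093) and that of Ezh2 without vehicle replicate 1 (0.0715).

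Among 20 other genes of the naive state 7 rose and 3 fell, with a median log2 fold change of 0.03. Over all tested genes 11.9% were called higher and 10.5% lower. Jam2, a junctional adhesion molecule, had 239, 210 and 232 CPM in the 4OHT samples, against 107, 106 and 118 CPM in the vehicle samples. With a log2 fold change of 1.08 (SE 0.06, edgeR adjusted p = 1.56e-10) it changed more than any of the 10 transcription factors. With the replicate block 7 of these naive genes were called higher and 5 lower. The lower calls were also 5 with library totals alone, and without 4OHT replicate 3 there were 6 higher and 6 lower. In the list of 16 genes of the formative and primed states, which follow the naive state, 15 were tested, 6 rose and 3 fell, with a median of 0.03. DESeq2 with all libraries called 5 of the list higher and 0 lower, so all 3 lower calls were lost there, among them those of Lef1 and Zic5 (DESeq2 adjusted p = 0.0797 and 0.0602, unadjusted p = 0.00651 and 0.00451). Without 4OHT replicate 2, DESeq2 called 5 higher and 3 lower. Otx2, the homeobox factor of the formative state, and Dnmt3a and Dnmt3b had log2 fold changes of 1.17, 0.48 and 0.41. The lists of the naive and formative genes thus had about the same median as the 10 factors, beside 0.00 for all tested genes.

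**Figure D4:**
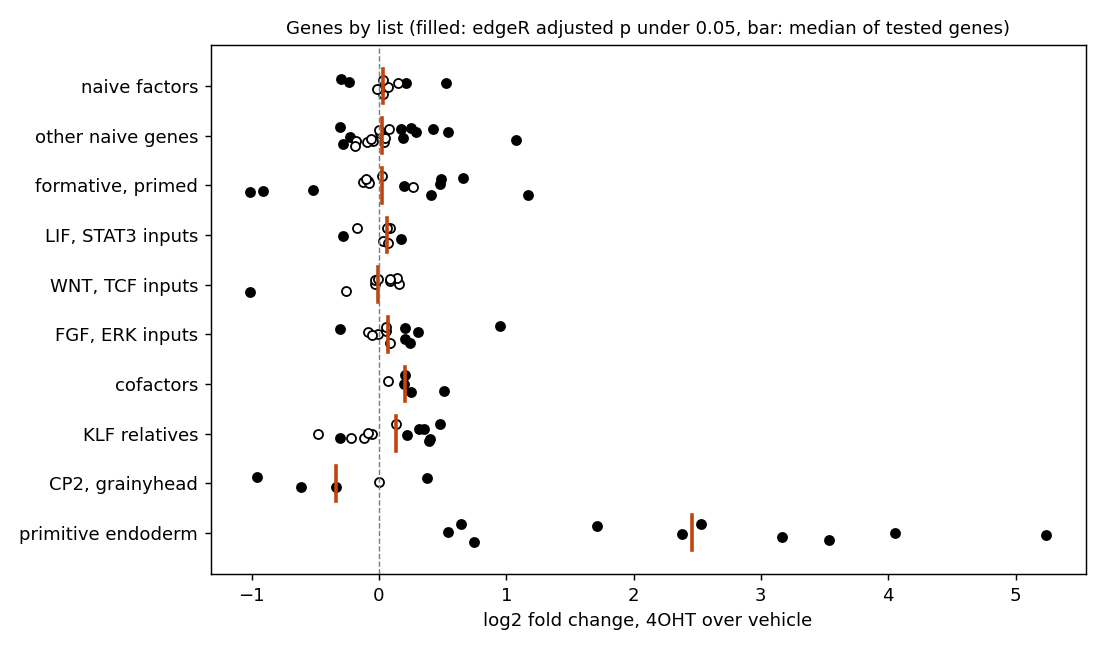
Log2 fold change of 4OHT over vehicle (horizontal axis) of each tested gene in 10 gene lists, filled where the edgeR adjusted p was under 0.05, with the median of each list as a bar. The naive factors lie within -0.30 and 0.53, and the primitive endoderm markers within 0.54 and 5.24.

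The genes whose log2(CPM + 1) pattern over the 6 samples was most like that of Klf2, among 6966 genes with a mean of at least 20 CPM, were Sppl3, Gnai2 and Lgr4, with Pearson r of 0.998, 0.997 and 0.996. Their log2 fold changes were 0.16, 0.39 and 0.23, and an opposite-strand gene overlaps 9.13% of the exon bases of Sppl3. For Prdm14 they were Pea15a, Zfp850 and Qrsl1, with r of 0.998, 0.997 and 0.997 and with log2 fold changes of -0.13, -0.09 and -0.24. With 6 samples in 2 groups such values are a description, and all points share the treatment groups and the library depths.

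**Figure D5:**
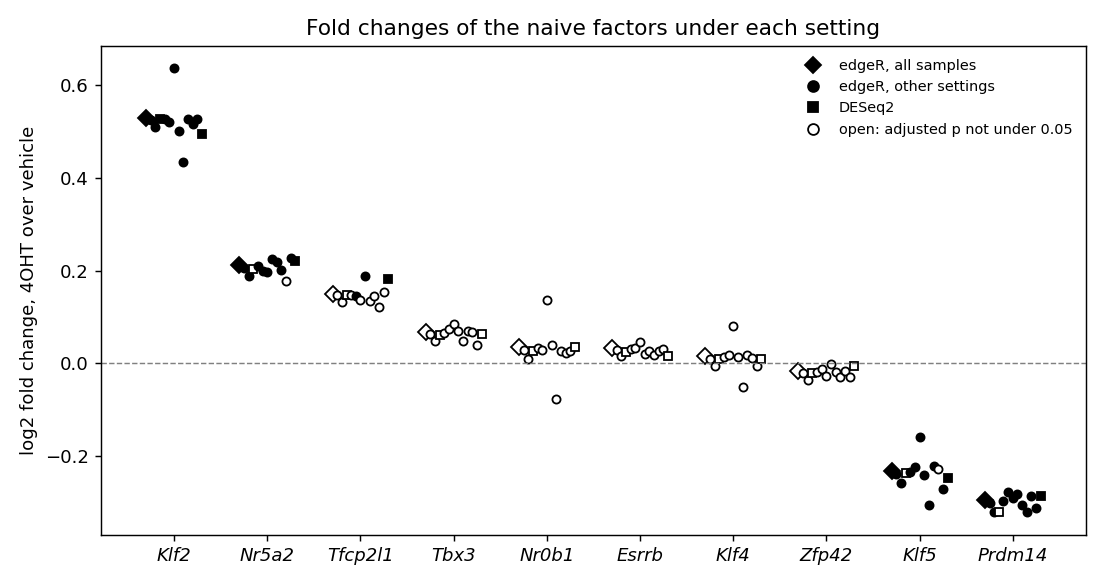
Log2 fold change of 4OHT over vehicle (vertical axis) of each naive factor in edgeR with all samples (diamonds), in the other edgeR settings (circles) and in DESeq2 (squares), open where the adjusted p was not under 0.05. Klf2 stays between 0.43 and 0.64 and filled throughout, and the points of Klf4 and Nr0b1 lie on both sides of 0.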

How the data were processed

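RNA-seq libraries of the 6 samples were made with a NEBNext Ultra kit, per the labels' protocols. The authors deposited raw counts per gene symbol in 1 table, and the submitters' processing notes name STAR, DESeq and mm9. What counted the reads, with which annotation and strand setting, is not given in the sources used here. Totals differ as those of raw counts do. The test was that of edgeR 4.0.16 (R 4.3.3): filterByExpr (minimum count 10) left 14458 genes, TMM factors were 0.979 to 1.017, and a quasi-likelihood model with a treatment term was fitted to all 6 samples, with Benjamini-Hochberg adjustment over all tested genes at 0.05. Log2 fold changes are 4OHT over vehicle (prior count 0.125), with intervals at the 95% level. Counting intervals are exact (Poisson, or Clopper-Pearson for shares). The precision of each value in 4OHT replicate 2 is set by its 515388 counts. The analysis was tested on simulated data.

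The alternatives were DESeq2 1.42.0, its size factors in edgeR, library totals alone, no filter on low counts, a replicate block and leaving out each sample. DESeq2 without 4OHT replicate 2 and merged exon lengths were added after seeing the data. Same-numbered samples of the groups, whose numbers come from the titles, deviated together over 3672 genes (r of 0.57, 0.15 and 0.38). The numbers were therefore taken to pair them in the replicate block, although vehicle replicate 2 correlated more with 4OHT replicate 3 (0.44). The main fit did not use this pairing. No pair of samples in a group agreed within sampling noise in a chi-square test. Lengths come from GENCODE vM21, near copies from blastn 2.17.0 and promoters from RefSeq on GRCm38.p6, used for names, lengths and sequences only.

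The members and gene lists were chosen with earlier results of these data known. The genes named are the 10 members, Nanog, Pou5f1 and Sox2, up to 4 genes with the smallest adjusted p in each list, and the 3 genes most like each of the 2 members with the smallest adjusted p. Lama1 and Col4a1 are named besides these, for their share of a marker sum, and Fgfr1 as the other FGF receptor gene of its list.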

Additional observations from a re-analysis of the deposited data

How the results depend on the processing

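Klf2 kept its direction and its call in all 12 alternatives (log2 fold change 0.43 to 0.64, largest adjusted p 0.000579). DESeq2 with all libraries called 552 genes higher and 392 lower of 20396 with a fold change, and among the naive factors 1 higher and 0 lower. There 3 higher and 2 lower members had an unadjusted p under 0.05. The share of all genes at that unadjusted threshold is not given here, so these member counts are a description only. The cause of the fewer calls was not tested. DESeq2 without 4OHT replicate 2 called 1247 genes higher and 1091 lower over all genes, and 3 members higher and 2 lower. In that fit 4 cofactor genes were called higher, and of the CP2 and grainyhead relatives 1 higher and 3 lower. The calls of Esrra and Socs3 stayed lost there (DESeq2 adjusted p = 0.0517 and 0.0636). With each sample left out in turn, edgeR called 1218 to 1950 genes higher and 1150 to 2019 lower, and 1 to 3 members higher and 1 to 2 lower, with 1 and 1 without vehicle replicate 2. The replicate block called 2115 genes higher and 1958 lower, and 3 members higher and 2 lower. Beyond Tfcp2l1 it changed no call of a member. With library totals alone 45.3% of calls were higher, against 53.2% with TMM, and the median of all genes moved to -0.03. The log2 fold change turned in sign for Klf4 with library totals alone (-0.0067). With samples left out in turn it ran from -0.052 to 0.082 for Klf4 and from -0.077 to 0.14 for Nr0b1, from -0.0728 to 0.024 for Yy2 (whose exons all lie within those of Mbtps2), from -0.051 to 0.031 for Yy1 (0.026 in DESeq2 without 4OHT replicate 2) and from -0.040 to 0.18 for Il6st. Of the values of single named genes under the alternatives, 797 kept direction and side of the threshold, 73 lost a call, 8 gained one and 10 turned in sign. The Klf2, Klf4 and Klf5 shares kept their directions per length and without each sample. In 4OHT replicate 2, 2028 tested genes had no read, which limits what that library shows for low genes.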
